A study of Mus musculus with 7 samples.

Results

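Expression of 37 genes of mitosis and cytokinesis was examined in bone marrow cells of mice that had received 5-HT or saline. The cells were selected for the surface protein CD41 and are called megakaryocytes (MKs) by the authors. The genes were taken from a list of mitotic regulators, kinetochore and spindle proteins, and proteins of the cleavage furrow. On the arrays, 35 of the 37 had a named probe, and Ccnb1 and Mki67 had none. Each gene was read from its brightest probe, the one with the highest mean over the 7 arrays. A mean log2 signal of at least 7.5 was reached by 22 of the 35, among 5428 of the 19057 genes with a named probe.

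The 5-HT group comprised 4 samples and the saline group 3 samples. All mice were adult male C57BL/6J animals of 10 to 12 weeks carrying an osmotic pump for 24 h. Pumps of the 5-HT group held 25.8 mM 5-HT (serotonin) and delivered 1.66 µg/kg/h, while those of the saline group held saline alone. A sample was a pool of 3 to 4 mice run on its own Illumina mouse BeadChip array, so that all p-values measure the spread between pools. The sample titles do not say which arrays shared a chip. For the isolation technique, a purity of at least 96.6% is cited in the methods; no purity of these samples was used here.

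Entry into mitosis is driven by the kinase Cdk1 with its cyclin partners. The spindle then attaches to chromosomes at kinetochores, a checkpoint holds anaphase until all are attached, and the anaphase-promoting complex releases separase to split the sister chromatids. Cytokinesis follows when the central spindle directs a contractile ring between the separated chromosomes. MKs are known for endomitosis, in which the cell enters mitosis but abandons anaphase or cytokinesis and becomes polyploid, so these genes are used by dividing progenitors and by MKs that are raising their ploidy. Most of them are transcribed in G2 and M phase, through a promoter element named the cell cycle genes homology region (CHR, letters TTTGAA) and CCAAT boxes bound by NF-Y.

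Promoter sequences from RefSeq (GRCm38.p6), covering 250 bases before to 50 bases after each annotated start, were found for 33 of the 37 genes, with 35 promoters in all because Ect2 and Prc1 have 2 each. Both strands were searched for TTTGAA and for CCAAT, which reads ATTGG on the opposite strand. TTTGAA was present in 27 of the 35 promoters (77.1%), against 5878 of all 32851 promoters of the same length (17.9%). CCAAT was present in 28 of the 35 (80%), against 37.4% of all promoters. Both were present in 24 of the 35 (68.6%), against 6.95% of all. Anln, Kif2c and Ndc80 had TTTGAA without CCAAT, Bub1, Ccnb1, Cenpe and Cks2 had CCAAT without TTTGAA, and neither was found in Birc5, Mad2l1, Nuf2 and Nusap1. These matches describe letters in a window and are not measured binding sites. The promoters of Cdk1, the central kinase, and of Cdca8 and Nusap1, which had the highest fold changes below, are shown 5′ to 3′ with matches in capitals:
Cdk1 (chr10:69352863-69353162, minus strand): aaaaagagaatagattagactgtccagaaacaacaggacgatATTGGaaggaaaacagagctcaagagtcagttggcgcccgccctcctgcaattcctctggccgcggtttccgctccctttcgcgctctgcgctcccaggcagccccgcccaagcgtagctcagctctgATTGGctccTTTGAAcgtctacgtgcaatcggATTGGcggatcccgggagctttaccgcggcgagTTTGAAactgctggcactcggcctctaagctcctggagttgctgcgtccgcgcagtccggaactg
Cdca8 (chr4:124936868-124937167, minus strand): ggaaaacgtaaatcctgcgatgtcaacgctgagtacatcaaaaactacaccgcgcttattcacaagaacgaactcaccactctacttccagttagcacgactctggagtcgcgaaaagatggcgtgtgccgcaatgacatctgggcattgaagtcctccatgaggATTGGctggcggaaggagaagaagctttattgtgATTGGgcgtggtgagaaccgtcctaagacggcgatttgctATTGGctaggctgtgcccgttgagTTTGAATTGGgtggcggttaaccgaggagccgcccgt
Nusap1 (chr2:119618048-119618347, plus strand): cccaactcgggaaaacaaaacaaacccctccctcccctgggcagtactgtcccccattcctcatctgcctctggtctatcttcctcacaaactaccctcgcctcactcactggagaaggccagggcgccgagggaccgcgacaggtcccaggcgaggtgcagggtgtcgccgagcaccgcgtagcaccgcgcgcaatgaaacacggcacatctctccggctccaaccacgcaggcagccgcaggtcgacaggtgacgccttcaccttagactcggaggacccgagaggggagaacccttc
In Cdk1, TTTGAA lies at offsets -71 and -15 from the annotated start, and ATTGG lies at -208, -80 and -48. In Cdca8, TTTGAA lies at offset 13 and shares its last base with an ATTGG at 18, with further ATTGG matches at -85, -51 and -11. Nusap1 has no capitals because neither set of letters is in its window.

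The arrays differed from each other across all genes, which bears on every value below. The deposited values share a median of 6.68 over all probes on each array, but the median of the genes kept was 9.43, 8.28, 8.96 and 9.03 in 5-HT replicates 1 to 4, and 8.99, 8.15 and 8.32 in saline replicates 1 to 3. 5-HT replicate 2 thus lay near saline replicates 2 and 3, and saline replicate 1 lay near the other 5-HT arrays. Markers of MKs followed the same division. Sums here and below take in all named markers of a list, also those below the limit. The summed linear signal of 18 named MK markers, 15 of them above the limit, was 67335, 17391, 31056 and 60741 in 5-HT replicates 1 to 4. In saline replicates 1 to 3 it was 57605, 18218 and 17206. Itga2b, which encodes CD41 itself, read 11.90, 9.36, 11.27 and 12.29 in 5-HT and 12.15, 9.17 and 8.86 in saline on the log2 scale, whereas Itgb3, Clec1b and Thbs1 were below the limit. Markers of other marrow lineages were also present. The summed signal of the neutrophil lineage markers exceeded that of the MK markers on every array, though such sums do not give cell numbers. The summed signal of 16 of 16 neutrophil lineage markers lay between 262942 and 306238 in 5-HT and between 208483 and 255614 in saline. That of 8 named monocyte markers, 6 of them above the limit, lay between 35961 and 47311 in 5-HT and between 27448 and 35206 in saline. The groups did not overlap in these sums, but most single markers did. Wholly above saline lay 4 of the 16 neutrophil lineage markers and 1 of the 6 monocyte markers above the limit (Ly6c1), where 6.28% of all genes did. The monocyte sum came mostly from Lyz1 and Ly6c1 (mean log2 signal 14.81 and 12.36). Lyz1 overlapped, as did Csf1r, Adgre1, Irf8 and Cd14. Csf1r and Cd14 were highest in saline replicate 1 (10.60 and 9.62), and Adgre1 and Irf8 in 5-HT replicate 1 (9.84 and 10.59). The summed signal of 7 named eosinophil markers, 3 above the limit, lay between 2430 and 20153 in 5-HT and between 1115 and 1932 in saline. Prg3 and Ear6 reached the limit only through the 5-HT arrays, so nothing was read from those genes alone. Their signal is part of the eosinophil sums, so no separation was read from these sums either. Prg2 exceeded the limit on every array, with 14.02, 10.72, 10.75 and 12.56 in 5-HT and 10.25, 8.86 and 9.49 in saline. Its groups did not overlap (log2 fold change 2.48, SE 0.58, adjusted p = 0.563 by limma). The remaining lists overlapped. The 12 named erythroid markers, 4 above the limit, summed to between 4329 and 15833 in 5-HT and between 9549 and 17992 in saline. The 10 named stem and progenitor markers, 5 above the limit, summed to between 1727 and 3677 in 5-HT and between 1549 and 2796 in saline. The 12 named B lineage markers, 2 above the limit, summed to between 2163 and 4141 in 5-HT and between 1996 and 2457 in saline. The defining erythroid gene Klf1, the eosinophil genes Siglecf and Ccr3, and the B lineage genes Pax5 and Rag1 were below the limit. Erythroid markers above it were Hba-a1 (mean log2 signal 13.06), Tfrc (9.15), Slc4a1 (8.50) and Alas2 (7.94). Their median log2 fold change was -0.19, against 0.42 for all genes kept. B lineage markers above it were Cd79b (10.31) and Vpreb3 (8.07). The part of cell composition in the values of the mitosis genes was not tested, and fewer cells of a type cannot be told apart from less RNA per cell in such samples.

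None of the 22 mitosis and cytokinesis genes above the limit differed between the 5-HT and saline samples by limma at an adjusted p under 0.05, where 0 of all 5428 genes (0%) passed. At an unadjusted p under 0.05, 0 of the 22 passed, against 311 of all genes. At the thresholds named in the methods, a fold of more than 1.5 together with an unadjusted p under 0.05, 0 of the 22 were higher in 5-HT where 5.71% of all genes were, and 0 were lower where 0.0184% were. In no gene of the 22 did all 5-HT arrays lie above all saline arrays, a separation seen in 6.28% of all genes, and in none did they all lie below, as in 0.129% of all genes. The log2 fold change, 5-HT minus saline, was above 0 for 22 of 22 on the deposited scale, where that of 91.3% of all genes was, but for 12 of 22 after quantile normalization, where that of 62% was. The median log2 fold change was 0.42 over the 22 genes and 0.42 over all genes kept, with quartiles of 0.34 and 0.62 for these genes and of 0.23 and 0.60 for all. Standard errors of the 22 lay between 0.36 and 0.49, so that the typical difference was about as large as its own error.

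**Figure D1:**
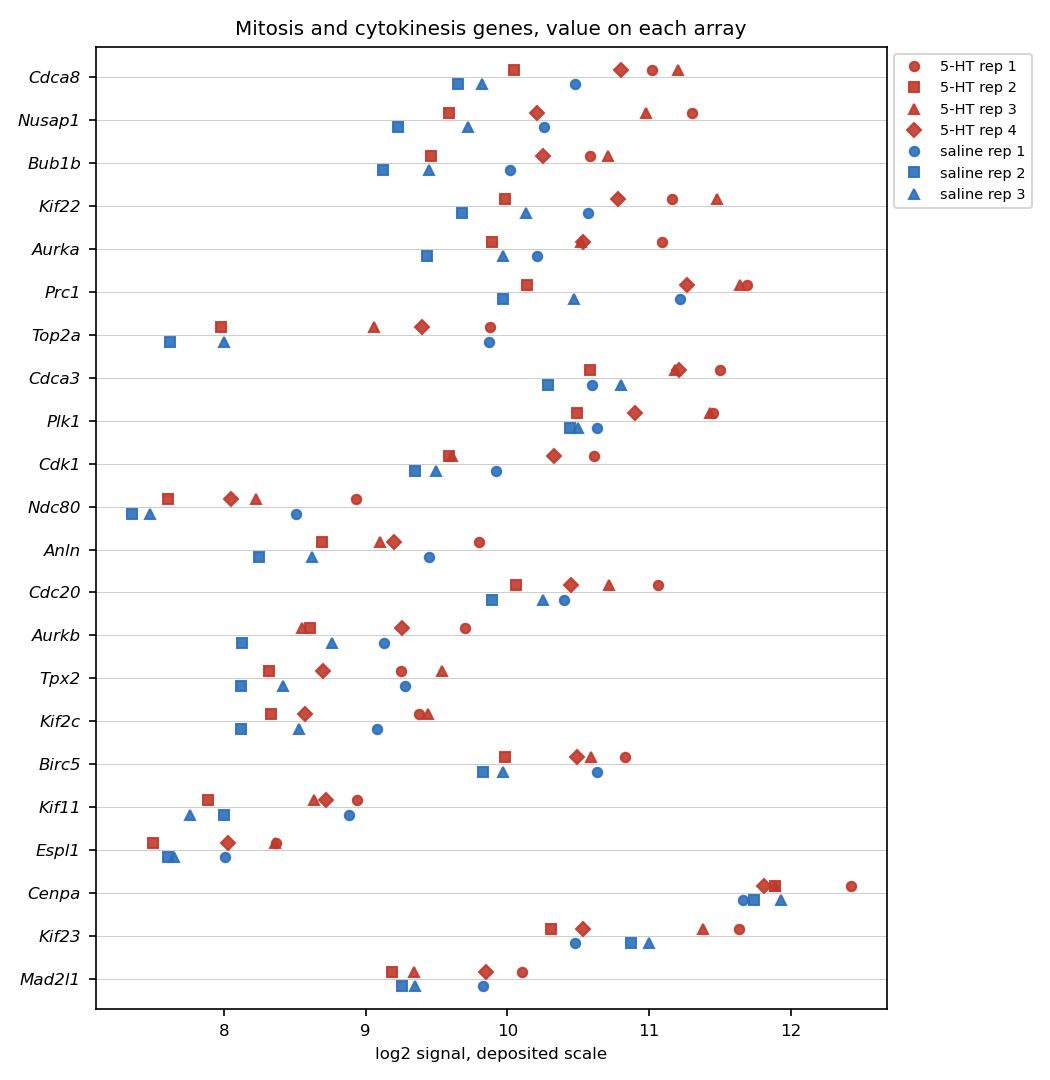
Deposited log2 signal (horizontal axis) of the 22 mitosis and cytokinesis genes above the limit on each array, ordered by log2 fold change, with 5-HT in red above saline in blue and 1 point for each pool. The groups overlap in every row: saline replicate 1 lies above 5-HT replicate 2 in 21 of the 22 genes.

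Among the kinases, Cdk1, which starts mitosis, read 10.61, 9.59, 9.61 and 10.33 in 5-HT replicates 1 to 4 and 9.92, 9.35 and 9.50 in saline replicates 1 to 3. Its means were 10.04 ± 0.52 in 5-HT (SD, n = 4) and 9.59 ± 0.30 in saline (SD, n = 3), and 5-HT replicates 2 and 3 lay below saline replicate 1. The log2 fold change was 0.44 (SE 0.39, 95% interval -0.35 to 1.24, adjusted p = 0.576 by limma). Aurka, the Aurora kinase of the spindle poles, read 11.09, 9.89, 10.52 and 10.53 in 5-HT and 10.21, 9.43 and 9.97 in saline, a log2 fold change of 0.64 (SE 0.39, 95% interval -0.16 to 1.44, adjusted p = 0.563). Plk1, the Polo kinase that acts from mitotic entry to cytokinesis, read 11.45, 10.49, 11.43 and 10.90 in 5-HT and 10.63, 10.44 and 10.50 in saline. The saline values of Plk1 lay within a narrow band (SD 0.10), but 5-HT replicate 2 fell inside it and the log2 fold change was 0.54 (SE 0.38). The partners of Cdk1 were either below the limit (the cyclins Ccna2 and Ccnb2 and the adaptor Cks2) or without a named probe (Ccnb1).

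The chromosomal passenger complex corrects faulty attachments and later guides cytokinesis, and 3 of its subunits were measured. Cdca8, which encodes its borealin subunit, read 11.02, 10.05, 11.20 and 10.80 in 5-HT and 10.48, 9.65 and 9.82 in saline. 5-HT replicates 1, 3 and 4 were above all saline arrays, and replicate 2 was below saline replicate 1. Its log2 fold change of 0.78 (SE 0.39, 95% interval -0.02 to 1.59, unadjusted p = 0.0566, adjusted p = 0.563) had the smallest p among the 22 genes. Aurkb, the kinase of the complex, read 9.70, 8.61, 8.55 and 9.26 in 5-HT and 9.13, 8.13 and 8.76 in saline, with a log2 fold change of 0.36 (SE 0.40). Birc5, which encodes survivin, read 10.83, 9.98, 10.59 and 10.49 in 5-HT and 10.63, 9.83 and 9.97 in saline, with a log2 fold change of 0.33 (SE 0.38, 95% interval -0.45 to 1.11, adjusted p = 0.629). The subunits of this complex therefore had unlike differences, but each lay within the interval of the others, and the difference between them was not tested.

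The spindle checkpoint delays anaphase by holding Cdc20, and its 2 genes above the limit stood at opposite ends of the 22. Bub1b, which encodes the checkpoint protein BubR1, read 10.58, 9.46, 10.71 and 10.25 in 5-HT and 10.02, 9.12 and 9.45 in saline. The difference in means was 0.72 on the log2 scale (SE 0.40, 95% interval -0.10 to 1.54, adjusted p = 0.563). Mad2l1, which encodes Mad2, read 10.10, 9.19, 9.34 and 9.85 in 5-HT and 9.83, 9.26 and 9.35 in saline. Here 5-HT replicate 2 was the lowest of the 7 arrays and 5-HT replicate 3 lay between saline replicates 2 and 3, and the log2 fold change was 0.14 (SE 0.38, 95% interval -0.64 to 0.92, adjusted p = 0.819), the lowest of the 22. Bub1 and Ttk, the checkpoint kinases, were below the limit.

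At the centromere, Cenpa, the histone variant that marks it, read 12.42, 11.89, 11.89 and 11.81 in 5-HT and 11.66, 11.74 and 11.93 in saline. Its spread was among the smallest (SD 0.28 in 5-HT and 0.14 in saline), 5-HT replicate 1 alone stood above the rest, and saline replicate 1 was the lowest array. The log2 fold change was 0.23 (SE 0.36, 95% interval -0.52 to 0.98, adjusted p = 0.707). Ndc80, a subunit of the complex that binds microtubules at the kinetochore, read 8.93, 7.61, 8.23 and 8.05 in 5-HT and 8.51, 7.35 and 7.48 in saline, with a log2 fold change of 0.42 (SE 0.41). Saline replicate 1 was above 3 of the 4 5-HT arrays for Ndc80. Its complex partner Nuf2, the kinetochore motor Cenpe and Cenpf were below the limit.

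Of the genes of ubiquitylation and separase, Cdc20, the activator of the anaphase-promoting complex, read 11.06, 10.06, 10.72 and 10.45 in 5-HT and 10.40, 9.89 and 10.25 in saline (log2 fold change 0.39, SE 0.38). Cdca3, which promotes mitotic entry through degradation of Wee1, read 11.50, 10.58, 11.18 and 11.21 in 5-HT and 10.60, 10.29 and 10.80 in saline (log2 fold change 0.55, SE 0.37). Cdca3 differed from most of the 22 in that saline replicate 3, and not replicate 1, was the highest saline array. Espl1, which encodes separase, read 8.37, 7.5, 8.36 and 8.03 in 5-HT and 8.01, 7.61 and 7.65 in saline, so that 5-HT replicate 2 was the lowest of the 7 arrays. Its log2 fold change was 0.31 (SE 0.37, 95% interval -0.46 to 1.08, adjusted p = 0.638). Ube2c, the ubiquitin-conjugating enzyme of the complex, was below the limit.

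Spindle motors and microtubule-binding proteins formed the largest set of roles above the limit, with 5 of 6 genes. Nusap1, which bundles spindle microtubules, read 11.30, 9.59, 10.98 and 10.21 in 5-HT and 10.26, 9.23 and 9.72 in saline. Its log2 fold change was 0.78 (SE 0.43, 95% interval -0.10 to 1.66, adjusted p = 0.563). Kif22, the chromokinesin that pushes chromosome arms outward, read 11.16, 9.98, 11.48 and 10.78 in 5-HT and 10.57, 9.68 and 10.13 in saline. This gave a log2 fold change of 0.72 (SE 0.41, 95% interval -0.12 to 1.56, adjusted p = 0.563). For both, 5-HT replicates 1 and 3 were the highest arrays, and 5-HT replicate 2 lay below saline replicates 1 and 3. Kif11, the motor that separates the spindle poles, read 8.94, 7.89, 8.64 and 8.72 in 5-HT and 8.88, 8.0 and 7.76 in saline (log2 fold change 0.33, SE 0.40). Kif2c, a motor that removes tubulin from microtubule ends, read 9.38, 8.33, 9.44 and 8.57 in 5-HT and 9.08, 8.12 and 8.53 in saline (log2 fold change 0.35, SE 0.40). Tpx2, which activates Aurka on the spindle, was the only gene of the 22 in which 5-HT replicate 1 was not above all saline arrays, with 9.25, 8.32, 9.54 and 8.70 in 5-HT and 9.28, 8.12 and 8.42 in saline (log2 fold change 0.35, SE 0.41). Hmmr, a spindle protein and hyaluronan receptor, was below the limit.

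Of the genes of cytokinesis, Prc1, which bundles the central spindle, read 11.69, 10.14, 11.64 and 11.27 in 5-HT and 11.22, 9.97 and 10.47 in saline (log2 fold change 0.63, SE 0.43, adjusted p = 0.563). Kif23, the motor subunit of centralspindlin, read 11.63, 10.31, 11.38 and 10.53 in 5-HT and 10.48, 10.87 and 11.00 in saline. 5-HT replicates 1 and 3 lay above all saline arrays and replicate 2 below them, saline replicate 1 was the lowest saline array, and the log2 fold change was 0.18 (SE 0.40, 95% interval -0.64 to 1.0, adjusted p = 0.782). Anln, which encodes the contractile ring scaffold anillin, read 9.80, 8.69, 9.10 and 9.20 in 5-HT and 9.45, 8.25 and 8.62 in saline (log2 fold change 0.42, SE 0.40). Racgap1, the partner of Kif23, Ect2, the activator of RhoA at the furrow, and the motor Kif20a were below the limit. Top2a, the topoisomerase that untangles sister chromatids, had the widest spread, with 9.88, 7.98, 9.06 and 9.40 in 5-HT and 9.87, 7.62 and 8.0 in saline. Saline replicate 1 was nearly level with the highest 5-HT array, the SD was 0.81 in 5-HT and 1.20 in saline, and the log2 fold change was 0.58 (SE 0.49).

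**Figure D2:**
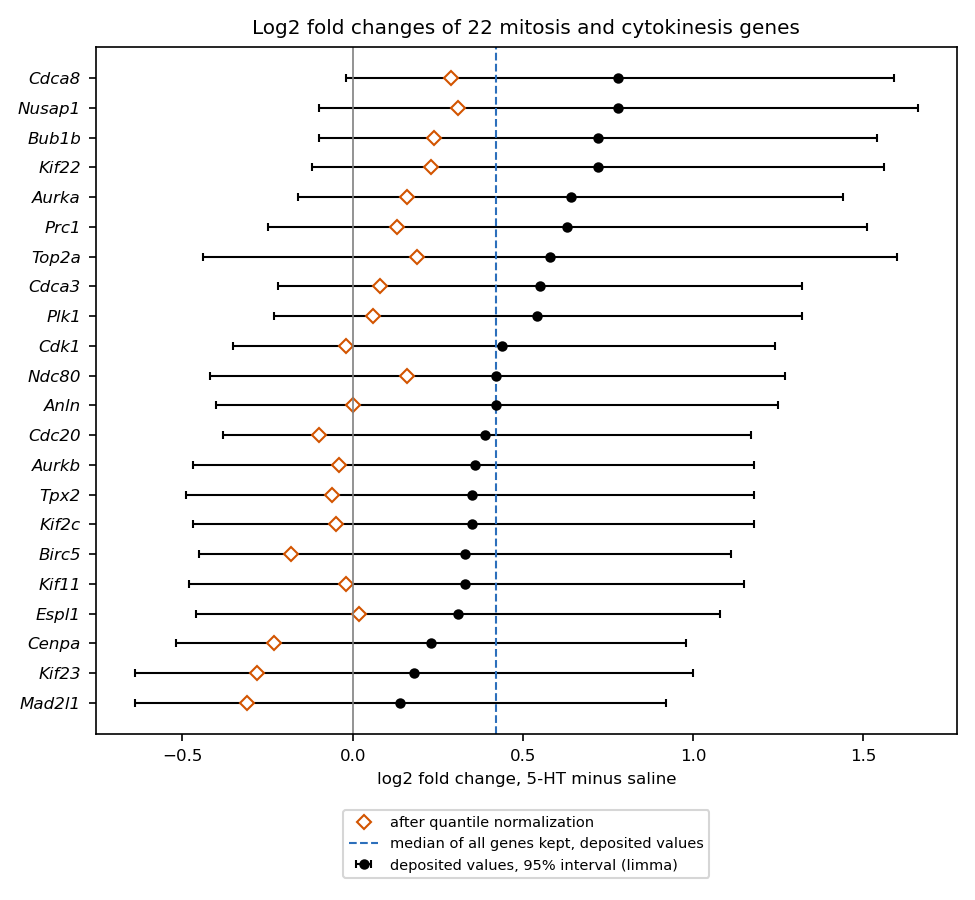
Log2 fold change (horizontal axis, 5-HT minus saline) of the 22 genes on the deposited scale with its 95% interval from limma (black) and after quantile normalization (open diamonds). Each black interval crosses 0, the dashed line marks the median of 0.42 of all genes kept, and 10 of the 22 values turn below 0 after quantile normalization.

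The 13 genes below the limit had values between 6.41 and 7.90 and means between 6.57 and 7.15, with 11 of the means under 7, close to the array median of 6.68. The lowest mean above the limit was 7.93 (Espl1), so no gene lay close to the threshold on either side. Ube2c, with the highest mean of the 13, read 7.14, 7.09, 7.16 and 6.92 in 5-HT and 7.90, 6.95 and 6.87 in saline. Ccna2, the S and G2 phase cyclin, read 7.26, 6.92, 7.26 and 6.73 in 5-HT and 7.43, 7.05 and 6.69 in saline. In both genes the highest value was that of saline replicate 1. Detection p-values were not used here, so it was not settled whether these probes exceeded background.

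The order of the arrays was shared by most of the 22 genes. 5-HT replicate 1 was the highest of the 7 arrays for 17 genes (77.3%), against 62.7% of all genes kept, and 5-HT replicate 3 for the other 5 (22.7%, against 11.7%), namely Cdca8, Bub1b, Kif22, Kif2c and Tpx2. Saline replicate 2 was the lowest array for 17 genes (77.3%, against 53.4% of all genes). Saline replicate 1 exceeded both other saline arrays in 19 genes (86.4%, against 80.8%), with Cenpa, Kif23 and Cdca3 as exceptions. 5-HT replicate 2 lay below every other 5-HT array in 20 genes (90.9%, against 79.5%). It was above all saline arrays in 0 of the 22 genes, against 9.51% of all genes. The mean over the 22 genes was 10.49, 9.37, 10.16 and 9.97 in 5-HT replicates 1 to 4 and 9.96, 9.18 and 9.46 in saline replicates 1 to 3, which gives 10.00 ± 0.47 in 5-HT (SD, n = 4) and 9.53 ± 0.40 in saline (SD, n = 3). Over all genes kept the means were 9.26 ± 0.43 in 5-HT and 8.85 ± 0.37 in saline. Saline replicate 1 exceeded the other saline arrays by a median of 0.71 over the 22 genes and of 0.65 over all genes, and 5-HT replicate 2 differed from the other 5-HT arrays by -0.80 and -0.75.

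**Figure D3:**
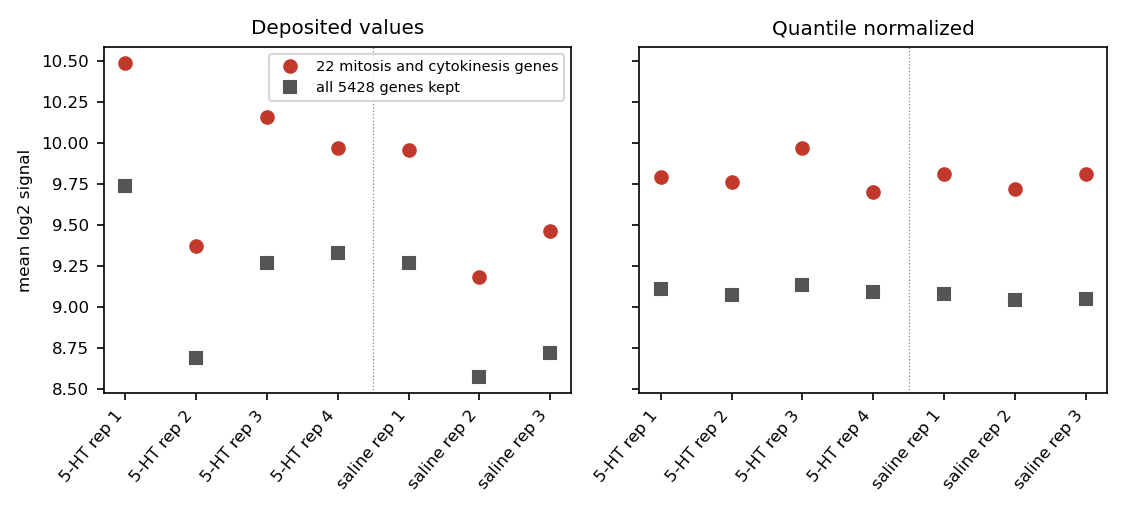
Mean log2 signal (vertical axis) of the 22 genes (red circles) and of all genes kept (grey squares) on each array, with deposited values on the left and quantile normalized values on the right. On the deposited scale both sets move together between arrays, 5-HT replicate 1 being highest for the 22 genes (10.49) and saline replicate 2 lowest (9.18); after normalization the 22 genes lie between 9.70 and 9.97.

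The counts past the fold and unadjusted p thresholds and those without overlap changed when 5-HT replicate 2 or saline replicate 1 was left out. The number of the 22 called by limma stayed at 0 without either array alone. Without 5-HT replicate 2, 8 of the 22 genes passed the fold and unadjusted p thresholds, all higher in 5-HT, where 31.1% of all genes did, and 9 did not overlap between groups, where 31.1% of all genes lay wholly above saline. Without saline replicate 1, 6 of the 22 passed, against 27.5% of all genes, and 6 did not overlap, against 35.8%. With both left out, which was chosen after the values were seen, 14 of the 22 were called by limma at an adjusted p under 0.05, where 56.6% of all genes were called, and the median log2 fold change was 0.85 for the 22 genes and 0.83 for all.

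Quantile normalization, which gives every array the same distribution, removed most of the shared shift. The median log2 fold change of all genes kept then dropped to 0.08 and that of the 22 genes to 0.01, and the means over the 22 genes were 9.81 ± 0.11 in 5-HT (SD, n = 4) and 9.78 ± 0.05 in saline (SD, n = 3). On this scale 5-HT replicate 3 was the highest array for 9 of the 22 genes (40.9%, against 26.3% of all genes) and the lowest for 3 (13.6%, against 16.2%, close to the background). Saline replicate 2 was the lowest array for 7 genes (31.8%, against 19.9%) and 5-HT replicate 4 for 5 (22.7%, against 12.3%). These shares were not tested. Kif22 read 10.44, 10.37, 11.26 and 10.50 in 5-HT and 10.48, 10.27 and 10.49 in saline on this scale, and Cdca8 read 10.29, 10.43, 10.99 and 10.53 in 5-HT and 10.37, 10.24 and 10.18 in saline. The 3 genes with 5-HT replicate 3 lowest were Cdk1, Aurkb and Mad2l1, and Cdk1 read 9.88, 10.01, 9.40 and 10.04 in 5-HT and 9.75, 9.93 and 9.87 in saline. Only Mad2l1 had groups that did not overlap after this normalization, with 9.38, 9.64, 9.14 and 9.56 in 5-HT and 9.65, 9.85 and 9.72 in saline. Its log2 fold change was -0.31 there (SE 0.18, adjusted p = 0.82 by limma), the opposite sign to the deposited scale, and 1.6% of all genes lay wholly below saline under this normalization. Nusap1, Cdca8 and Bub1b kept the highest quantile normalized log2 fold changes of the 22, at 0.31 (SE 0.24), 0.29 (SE 0.20) and 0.24 (SE 0.20).

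**Figure D4:**
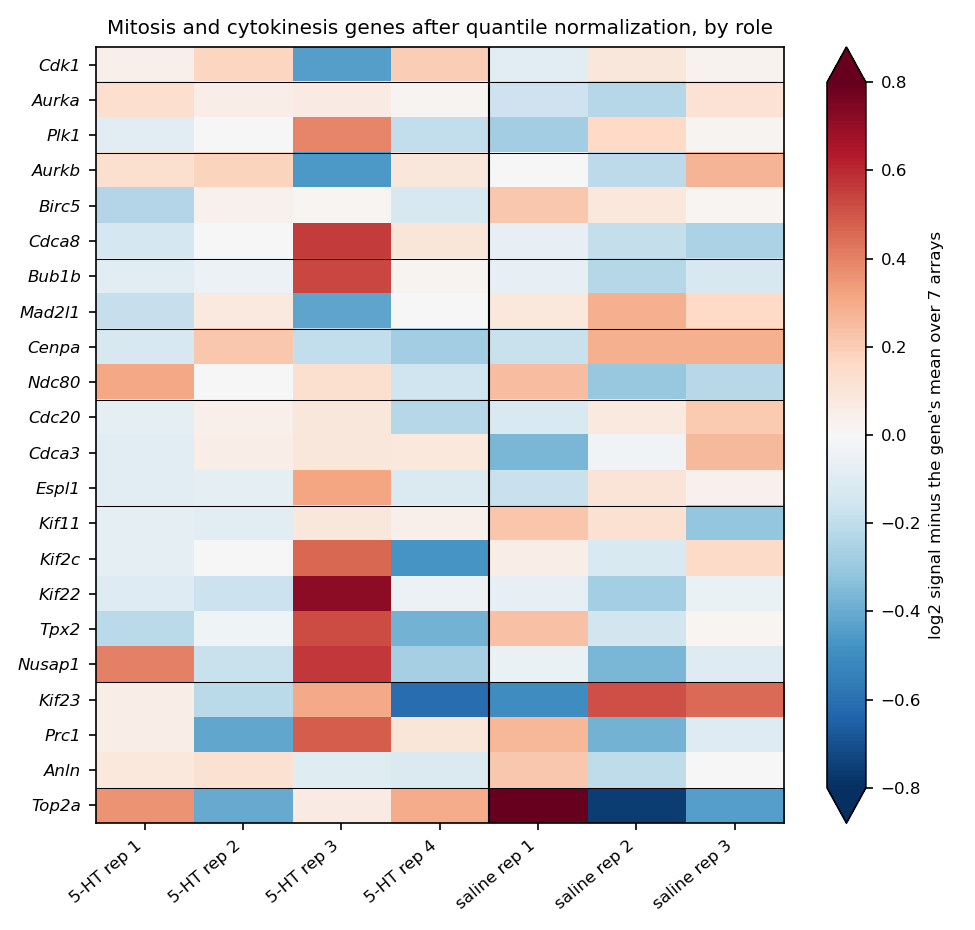
Quantile normalized log2 signal of the 22 genes on each array minus the mean of the gene over the 7 arrays (colour, red above and blue below), with rows grouped by role and 5-HT arrays left of saline arrays. 5-HT replicate 3 holds 9 of the row maxima and saline replicate 2 holds 7 of the row minima; Top2a and Kif23 vary within both groups.

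Several genes carried more than 1 probe, and these did not always run together. Of 68 probes of the listed genes, 34 reached the limit, and 9 genes had at least 2 such probes. Among their 12 additional probes, 5 had a log2 fold change below 0 where the brightest probe was above 0 on the deposited scale. The second probe of Anln read 8.40, 7.24, 7.39 and 7.32 in 5-HT and 7.5, 8.43 and 8.28 in saline, a log2 fold change of -0.48 (SE 0.40). That of Top2a read 8.08, 7.73, 7.05 and 7.29 in 5-HT and 7.76, 8.12 and 8.51 in saline (log2 fold change -0.59, SE 0.38), and that of Cdca8 read 8.66, 7.85, 7.95 and 8.59 in 5-HT and 8.76, 8.74 and 8.37 in saline (log2 fold change -0.36, SE 0.38). In Anln and Top2a, saline replicates 2 and 3 were high on the second probe and low on the first. Kif23 and Birc5 each had 1 further probe near 0, at -0.09 and -0.01. The probes of other genes ran the same way, with 0.39, 0.75 and 0.46 for Cdc20, 0.55 and 0.75 for Cdca3, 0.72 and 0.69 for Bub1b, and 0.14 and 0.23 for Mad2l1. With each probe fitted on its own, 0 of 7142 probes passed an adjusted p under 0.05 by limma. Differences between probes of 1 gene were not tested.

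**Figure D5:**
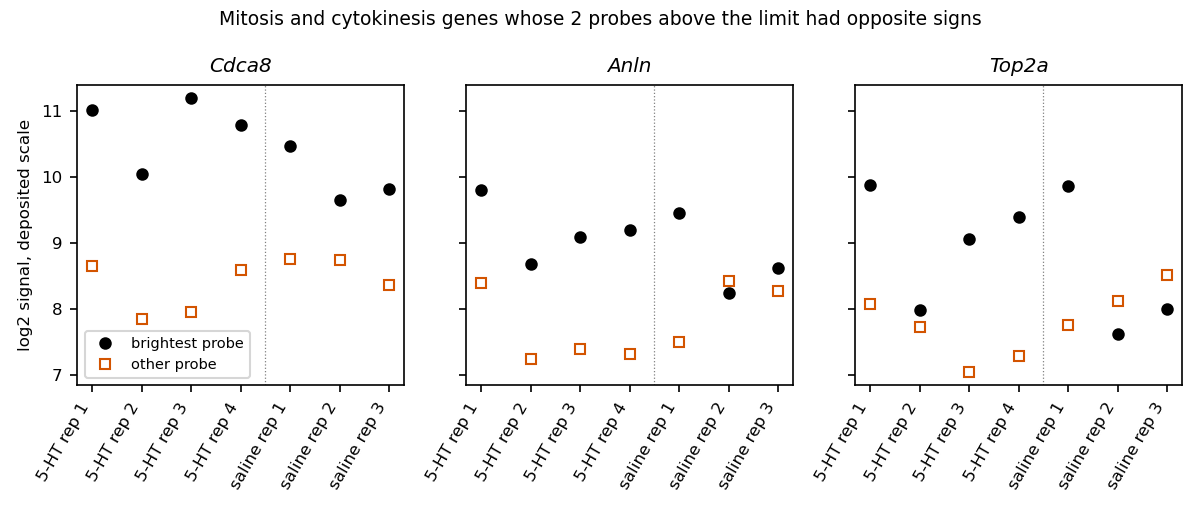
Deposited log2 signal (vertical axis) of the brightest probe (black circles) and the other probe above the limit (open squares) of Cdca8, Anln and Top2a on each array, 5-HT left of the dotted line and saline right of it. The brightest probe averages higher in 5-HT than in saline on the deposited scale and the other probe lower, with log2 fold changes of 0.78 and -0.36 for Cdca8, 0.42 and -0.48 for Anln, and 0.58 and -0.59 for Top2a.

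Other genes of the same processes were read from lists of their own. Of all genes kept, 0 were called, 5.71% passed the fold and unadjusted p thresholds as higher in 5-HT, and 0.0184% as lower. Of 66 further mitosis genes, 37 were above the limit, 0 were called by limma and 0 passed the fold and unadjusted p thresholds, and their median log2 fold change was 0.41. The highest were Bub3, a checkpoint protein (0.67, SE 0.37), and Iqgap3, a scaffold of proliferating cells (0.65, SE 0.40), and the lowest was Knl1, the kinetochore platform of the checkpoint (-0.54, SE 0.37). Knl1 read 7.77, 7.25, 7.39 and 7.43 in 5-HT and 7.52, 8.40 and 8.07 in saline. Of the 17 subunits and partners of the anaphase-promoting complex, 8 were above the limit with a median of 0.67, 0 were called and 1 passed the fold and unadjusted p thresholds. This was Anapc13, a small subunit, with 11.56, 10.55, 11.45 and 11.00 in 5-HT and 10.49, 10.13 and 10.14 in saline. Its groups did not overlap, where 6.28% of all genes lay wholly above saline. The log2 fold change of Anapc13 was 0.89 (SE 0.38, unadjusted p = 0.0276, adjusted p = 0.563 by limma).

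Of 18 condensin and cohesin genes, 13 were above the limit, with a median log2 fold change of 0.52, and 0 were called or passed the fold and unadjusted p thresholds. The condensin subunits Ncapd2 (0.87, SE 0.43) and Ncaph2 (0.76, SE 0.41) were the highest, and the cohesin loader Nipbl (-0.15, SE 0.40) the lowest. Of 16 regulators of mitotic genes, 9 were above the limit, with a median of 0.42, and 0 were called or passed the thresholds. Nfyc, a subunit of the CCAAT-binding factor, had 0.60 (SE 0.41), Mybl2, the B-Myb factor that acts through CHR elements, had 0.58 (SE 0.38), and Rbbp4, a subunit of the complex on these elements, had 0.02 (SE 0.37).

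Of 25 genes of G1 and the endocycle, the DNA replication cycle that raises ploidy, 14 were above the limit with a median log2 fold change of 0.39. Of these, 0 were called and 2 passed the fold and unadjusted p thresholds as higher in 5-HT, where 5.71% of all genes did. Ccnd3, the D-type cyclin known to raise MK ploidy when expressed in mice, read 13.27, 12.26, 13.38 and 13.10 in 5-HT and 12.34, 11.64 and 12.04 in saline. Its log2 fold change was 1.0 (SE 0.39, unadjusted p = 0.0168, adjusted p = 0.563 by limma), and 5-HT replicate 2 lay just below saline replicate 1. Cdkn2d, an inhibitor of the kinases that pair with D-type cyclins, had 0.92 (SE 0.41, unadjusted p = 0.0362, adjusted p = 0.563). Of 23 genes of the contractile ring and abscission, 11 were above the limit with a median of 0.49, 0 were called and 1 passed, against the same 5.71% of all genes. Chmp4b, an ESCRT-III subunit that cuts the bridge between daughter cells, read 10.73, 9.31, 11.27 and 10.02 in 5-HT and 9.75, 7.91 and 8.87 in saline, with a log2 fold change of 1.49 (SE 0.47, unadjusted p = 0.00408, adjusted p = 0.563). After quantile normalization the medians of these 6 lists were 0.10, 0.19, 0.08, 0.06, -0.02 and 0.17, in the order given here, beside 0.08 for all genes kept.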

How the data were processed

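Biotin-labeled cRNA, prepared from total RNA of CD41-selected marrow cells, was hybridized to Illumina mouse BeadChips. The authors exported the signals from GenomeStudio, took logarithms and median-normalized the arrays; whether background was subtracted is not given in the sources used here. The authors removed 1 saline sample. No further transformation was applied to the deposited log2 values. A second table was not used, because its 14 value columns carry names that match no sample.

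Of 45281 probes, 34885 had 1 gene symbol, 18 had several and 10378 had none listed; of the first kind, 34807 matched RefSeq by gene identifier, which changed 0 symbols. Each gene was read from its brightest probe, and genes with a mean log2 signal of at least 7.5 were kept. The 4 5-HT and 3 saline arrays were fitted by lmFit with group as the only term, moderated by eBayes (limma 3.58.1, R 4.3.3; 5 residual and 18.9 prior degrees of freedom), and p-values were adjusted by Benjamini-Hochberg over all genes kept. The number of arrays limits the precision.

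The genes and lists were chosen with earlier results of these data known. Full statistics were given for the 5 genes with the highest and the 5 with the lowest log2 fold change; from each other list, those past a fold of 1.5 with an unadjusted p under 0.05, or else the 2 highest and the 1 lowest, were named. Alternatives were 2 between-array normalizations, other limits on signal, the mean of probes, eBayes with trend, the replicate number as a block, and each array left out. Scaling to the median of the genes kept, each probe on its own, and 2 arrays left out together were added after the data were seen.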

Additional observations from a re-analysis of the deposited data

Results flagged for a closer look

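For Cenpa, the centromeric histone, 5-HT replicate 1 lay far from the other arrays of its group, with 12.42 against 11.89, 11.89 and 11.81 in 5-HT replicates 2 to 4. Its gap to the nearest array was 0.869 of the range of the group, above the critical value for 4 samples. Cenpa was the only 1 of the 22 genes above the limit with such a gap in the 5-HT group. The critical value does not apply to the 3 saline arrays. By chance, about 1 in 20 groups of 4 meets this limit. After quantile normalization the same array read 11.76, inside the 11.61 to 12.10 of the other 5-HT arrays, and saline read 11.71, 12.17 and 12.17.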

How the results depend on the processing

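No gene of the 22 was called by limma at an adjusted p under 0.05 under any alternative except that without both saline replicate 1 and 5-HT replicate 2, chosen after the data were seen, 14 were called, 18 passed the fold and unadjusted p thresholds and 18 did not overlap, where 56.6% of all genes were called, 65.3% passed and 74.9% lay wholly above saline; the cause was not tested. Leaving out 1 array at a time gave 0 to 8 genes past those thresholds, 0 to 9 genes without overlap and medians of 0.23 to 0.64, and called 0 of the 22; the highest counts came without 5-HT replicate 2. Over these the log2 fold change of Mad2l1 ranged from -0.02 to 0.32 and that of Kif23 from -0.04 to 0.40, with the values below 0 found without 5-HT replicate 1.

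Scaling changed the sign of some genes, while Aurka, Plk1, Cdca8, Bub1b, Cdca3, Kif22, Nusap1, Prc1 and Top2a stayed above 0 under the 3 settings that follow. The median over all genes was 0.42 on the deposited scale, 0.08 after quantile normalization, 0.03 after cyclic loess and -0.02 after scaling to the median of the genes kept (added after the data were seen). After quantile normalization, Cdk1 was at -0.02, Aurkb -0.04, Birc5 -0.18, Mad2l1 -0.31, Cenpa -0.23, Cdc20 -0.10, Kif11 -0.02, Kif2c -0.05, Tpx2 -0.06 and Kif23 -0.28, and 1 gene, Mad2l1, lay wholly below saline, where 1.6% of all genes did. After cyclic loess, Cdk1 was at -0.05, Aurkb -0.08, Birc5 -0.17, Mad2l1 -0.34, Cenpa -0.25, Cdc20 -0.11, Espl1 -0.01, Kif11 -0.06, Kif2c -0.08, Tpx2 -0.09, Kif23 -0.32 and Anln -0.03, the median of the 22 was -0.02, and 1 gene, again Mad2l1, lay wholly below saline, where 2.36% of all genes did. After scaling to the median of the genes kept, Aurkb was at -0.08, Birc5 -0.11, Mad2l1 -0.30, Cenpa -0.21, Ndc80 -0.02, Cdc20 -0.05, Espl1 -0.13, Kif11 -0.11, Kif2c -0.09, Tpx2 -0.09, Kif23 -0.26 and Anln -0.02, and 2 genes, Cdca8 and Bub1b, lay wholly above saline, where 3.15% of all genes did. Under each of these settings the median over all genes was lower than on the deposited scale. Why the signs of single genes turned was not tested.

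With the mean of all named probes of a gene, Anln was at -0.02 and Top2a at -0.10, 1 gene (Cdca3) passed the fold and unadjusted p thresholds, where 6.58% of all genes did, and 1 (Cenpa) lay wholly above saline, where 5.86% did. Without a limit on signal, 1 of 35 genes (Ect2) lay wholly below saline, where 1.93% of all genes did, and the median of the 35 was 0.33. With a limit of 8, 21 genes were kept with a median of 0.42. With trend and robust eBayes, 0 of the 22 and 3 of all genes were called.

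With the replicate number as a block, which leaves out 5-HT replicate 4, 7 genes passed the fold and unadjusted p thresholds, where 22.9% of all genes did, and 0 of the 22 and 45 of all genes were called. The deviations of same-numbered arrays correlated at 0.15, 0.68 and -0.25, so the numbers were not taken to pair the samples, and not every array correlated best with its own number. Low signal limited 13 genes, whose means of 6.57 to 7.15 lay near the array median of 6.68.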
